A study of Heterocephalus glaber with 9 samples.

Results

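SARDH, the mitochondrial sarcosine dehydrogenase, and 9 further enzymes of the methionine-glycine one-carbon cycle were followed by RNA sequencing in livers of male naked mole-rats (Heterocephalus glaber), young and old. The 10 genes were picked by symbol from the 16339 gene rows of the count table, and each of them was found there. SARDH was chosen because it is higher in old livers, so its levels by age are a description and carry no test, whereas the other 9 were added for their place in the pathway. The young livers came from 6 animals of 2.7 to 4.1 years, numbered 1 to 6 here. The old livers A, B and C came from animals of 20, 30 and 20 years by their sample labels, and the study's methods put the youngest of these animals at a slightly higher age. The old animals are labelled as non-breeders, while the labels of the young ones give no reproductive status. The labels name no treatment and mark the young libraries as re-used from another record, and each liver gave 1 library.

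In hepatocytes, MAT1A converts methionine to S-adenosylmethionine, the methyl donor of most methylation reactions, and AHCY removes the S-adenosylhomocysteine that is left. GNMT spends surplus methyl groups on glycine and so makes sarcosine. Homocysteine is either returned to methionine by BHMT, with betaine made from choline by CHDH as the donor, or drawn off toward cysteine by CBS. The dimethylglycine that BHMT leaves is oxidized to sarcosine by DMGDH and then to glycine by SARDH, and SHMT1 in the cytosol and SHMT2 in mitochondria exchange glycine with serine. Liver and kidney carry most of this cycle in mammals.

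Each young liver had 14541856 to 20464409 counts and each old one 15176226 to 20048731. Levels are given as CPM, counts scaled to a common library size, after correction of the libraries by the TMM method. Old liver A and young liver 3 stood apart. Across genes, the Spearman correlation of A with B and C was 0.840 to 0.850 against 0.989 between B and C, and that of young 3 with the other young livers was 0.893 to 0.910 against 0.966 to 0.987 among those. Albumin took 1.41% of the counts of A and MTRNR2L4, a gene resembling mitochondrial ribosomal RNA, took 10.1% of those of A and 11.9% of those of young 3, against 2.43% to 4.17% in the other livers. All 8 hepatocyte markers were detected, with a summed level of 131584 to 234310 CPM in young livers, lowest in young 3, and of 30067 (A), 115682 (B) and 98635 (C) in old ones. Albumin (ALB) dominated this sum, with 90095 to 177159 CPM in young livers and 11955 to 69097 in old ones. APOA1 was the only 1 of the 8 with a higher mean in old livers, 1387 against 663 CPM. FGB had 11449 CPM in B, above the young maximum of 8968. The 6 endothelial markers summed to 277 to 521 CPM in young livers, 1470 in A, 508 in B and 512 in C, and the 6 stellate cell markers to 89.6 to 152 in young and 43.4 to 70.0 in old livers. The 4 erythroid markers in the table summed to 574 CPM in young 3, the highest of the young livers, and to 30.4 to 56.0 in old ones. The 6 Kupffer cell markers summed to 166 to 287 CPM in young livers, 74.7 in A, 337 in B and 325 in C. By the test used below, VWF and STAB1 of the endothelial list were higher and PECAM1 lower in old livers. LRAT, RGS5 and COL3A1 of the stellate list and HBB and ALAS2 of the erythroid list were lower, and 0 of the hepatocyte and Kupffer markers passed. Over all genes tested, 11.7% were called higher and 3.65% lower. VWF had 174 CPM in A, but 69.3 in B and 73.7 in C, inside the young range of 37.3 to 80.6. Without A, VWF, STAB1, PECAM1, RGS5 and HBB did not pass (edgeR FDR = 0.144 to 0.428), while LRAT, COL3A1 and ALAS2 did (edgeR FDR = 0.0461 to 0.0795). In bulk tissue, fewer cells of a type and less RNA per cell cannot be told apart, and the part of cell makeup in the results was not tested. A prefix in the sample descriptions is shared by all young livers and by no old liver. Among the old livers B and C share another prefix, while the description of A carries the word merged in its place. Age and whatever the prefix marks cannot be told apart.

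SARDH removes a methyl group from sarcosine and passes the electrons on to the respiratory chain. Its level in young livers ran from 263 to 427 CPM with a median of 319. In old livers it was 1476 CPM in A, 437 in B and 552 in C. All 3 old livers lay above all young ones, although B exceeded young 3, the highest young liver, by little. On the log2 scale the difference between old and young was 1.34 ± 0.36 (SE), and it was 0.61 ± 0.21 (SE) without A and 0.70 ± 0.16 (SE) without both A and young 3. Liver A had 26418 raw counts of SARDH against 9744 and 11904 in B and C, and the difference was smaller without it. SARDH was picked for being higher in old livers, so the sign kept in these fits is no check. SARDH varied little among young livers, with a coefficient of variation of 18.1%, and of 11.2% without young 3.

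**Figure D1:**
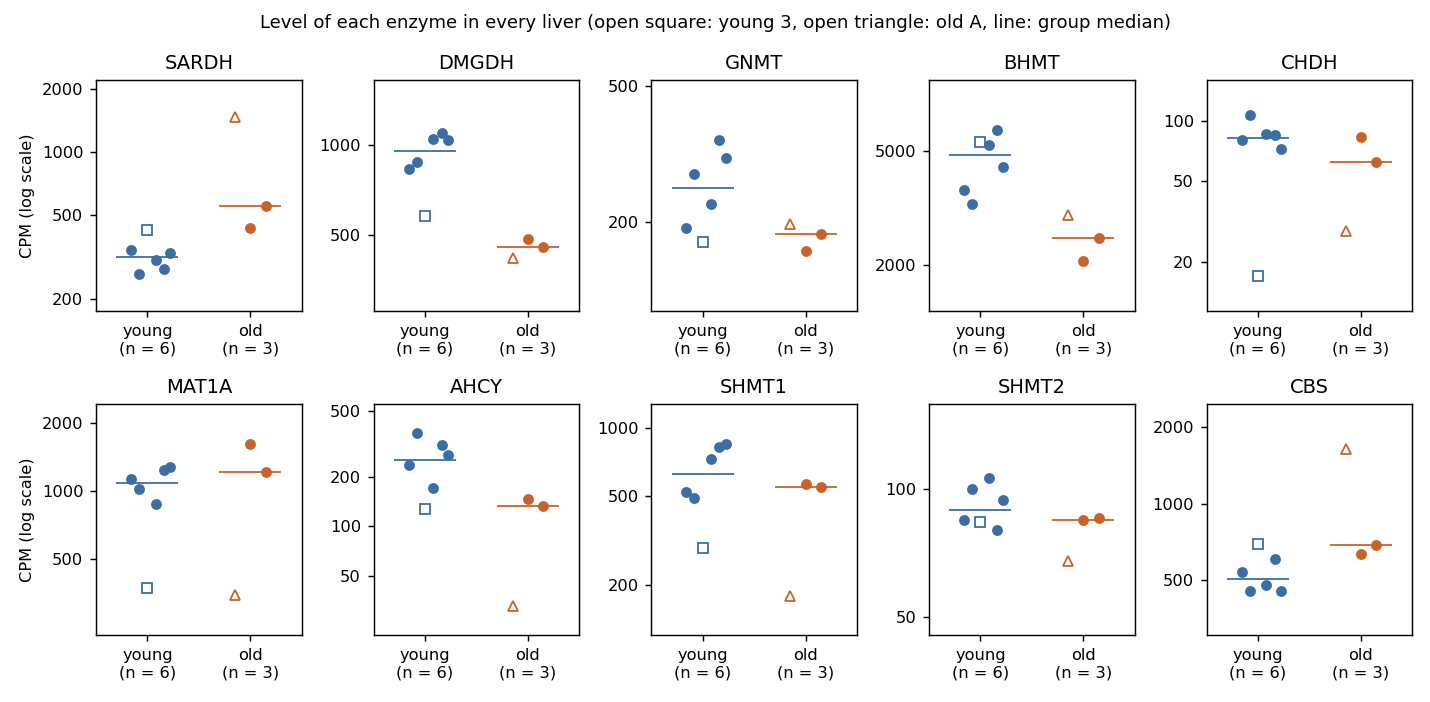
Level of each of the 10 enzymes in every liver, in CPM on a log axis, with 6 young and 3 old livers and a line at each group's median. SARDH lies at 437 to 1476 CPM in old livers and at 263 to 427 in young ones, while DMGDH and BHMT lie lower in all old livers, and the open symbols mark old A and young 3.

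DMGDH, the mitochondrial enzyme one step before SARDH, was down-regulated in old livers, in contrast to the level of SARDH. It had 581 to 1096 CPM in young livers (median 955), and 421 (A), 488 (B) and 456 (C) CPM in old ones. The old livers lay close together and all below the young ones, and the lowest young liver was again young 3. The mean went from 911 ± 193 CPM (SD, n = 6 livers) to 455 ± 33.5 (SD, n = 3), a log2 fold change of -1.001 ± 0.26 (SE, edgeR FDR = 0.0547). FDR is the p-value of edgeR's quasi-likelihood test adjusted by Benjamini-Hochberg over all 12277 genes tested, and the study's threshold of 0.1 was used. DMGDH and BHMT fell past this threshold, 2 of the 9 members other than SARDH, where 15.4% of all genes tested were called (11.7% higher and 3.65% lower in old livers). In DMGDH the log2 fold change was -0.95 without A and -1.05 without A and young 3 (edgeR FDR = 0.108 and 0.00851), and the call was also lost without young liver 2, 4, 5 or 6 (edgeR FDR = 0.116 to 0.118). Without 1 of these young livers the log2 fold change of DMGDH was -0.94 to -1.01. Over all genes, these fits called 125 to 310 genes higher and 62 to 95 lower. The counts over all genes were 264 and 167 without A, and 1437 and 448 in all 9 livers.

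BHMT, which moves a methyl group from betaine to homocysteine and leaves dimethylglycine, was down-regulated as well. Young livers held 3274 to 5928 CPM (median 4837), and old livers held 2987 (A), 2073 (B) and 2485 (C) CPM. Every old liver lay below every young one, and A was the highest of the old livers. The mean went from 4651 ± 1047 CPM (SD, n = 6 livers) to 2515 ± 458 (SD, n = 3), a log2 fold change of -0.89 ± 0.28 (SE, edgeR FDR = 0.0792). The change was larger without A (-1.03), but BHMT lost its call without any single liver other than young 3 (edgeR FDR = 0.102 to 0.155). Over all genes, these fits called 125 to 2055 genes higher and 62 to 538 lower, against 1437 and 448 in all 9 livers. Without both A and young 3 the log2 fold change of BHMT was -0.98 (edgeR FDR = 0.0333). BHMT and DMGDH were the 2 of the 9 members other than SARDH whose old and young livers did not overlap. The same held for 17.8% of all genes tested, with 9.83% higher and 8.01% lower in all old livers.

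CHDH, which starts the making of betaine from choline in mitochondria, did not pass the test. It had 17.1 to 106 CPM in young livers (median 82.5), and 28.3 (A), 82.7 (B) and 62.2 (C) CPM in old ones. The groups overlapped, and the lowest levels were those of young 3 and of A. The log2 fold change was -0.37 with a 95% confidence interval of -1.45 to 0.71 (edgeR FDR = 0.629). CHDH had the largest coefficient of variation of the 10 enzymes among young livers, 40.6%, which was 14.5% without young 3.

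Among the enzymes of the methionine cycle, AHCY had the largest negative difference, but it did not pass the threshold. AHCY, which splits S-adenosylhomocysteine into adenosine and homocysteine, stood at 128 to 368 CPM in young livers (median 253) and at 32.5 (A), 146 (B) and 132 (C) CPM in old ones. The old livers lay below all young ones except young 3 in the case of B and C, and A lay far below every other liver. Its log2 fold change was -1.25 ± 0.49 (SE, edgeR FDR = 0.126). It was -0.83 (edgeR FDR = 0.286) without A and -0.96 (edgeR FDR = 0.0425) without A and young 3. It also passed without young 3 alone (edgeR FDR = 0.0843).

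MAT1A, the liver form of methionine adenosyltransferase, showed no direction that held across livers. Young livers had 376 to 1281 CPM (median 1081), and old livers had 347 (A), 1611 (B) and 1208 (C) CPM. A and young 3 were the lowest of the 9 livers, and B was the highest. The log2 fold change was 0.09 with a 95% confidence interval of -0.95 to 1.14 (edgeR FDR = 0.906). It was 0.51 without A, and turned negative without old liver B (-0.35), old liver C (-0.02) or young liver 3 (-0.07).

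GNMT, the enzyme that makes sarcosine from glycine, stood at 175 to 348 CPM in young livers (median 251), and at 198 (A), 164 (B) and 184 (C) CPM in old ones. All old livers lay below the young median, but only B lay below the lowest young liver, young 3. The log2 fold change was -0.48 with a 95% confidence interval of -1.08 to 0.12, which did not pass (edgeR FDR = 0.250). Without A and young 3 it was -0.63 and passed (edgeR FDR = 0.0835). GNMT is the only member in which A lay higher and young 3 lower than the rest of its group.

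The serine hydroxymethyltransferases did not pass the test. SHMT1, the cytosolic form, had 292 to 850 CPM in young livers (median 622.5), and 180 (A), 562 (B) and 548 (C) CPM in old ones. B and C lay inside the young range and A below it, and the log2 fold change of -0.52 (95% confidence interval -1.47 to 0.43, edgeR FDR = 0.428) was -0.15 without A. SHMT2, the mitochondrial form, had 80.0 to 106 CPM in young livers (median 89.5), and 67.7 (A), 84.6 (B) and 85.7 (C) CPM in old ones. It was the steadiest of the 10 enzymes among young livers, with a coefficient of variation of 11.3%. Its log2 fold change was -0.21 with the narrowest 95% confidence interval among them, -0.65 to 0.23 (edgeR FDR = 0.498).

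CBS, which condenses homocysteine with serine on the way to cysteine, was the member whose profile over the 9 livers was most like that of SARDH. It had 455 to 695 CPM in young livers (median 508), and 1641 (A), 632 (B) and 686 (C) CPM in old ones. A lay far above all other livers, while B and C lay below young 3 and above the other 5 young livers. The log2 fold change was 0.88 ± 0.32 (SE), just short of the threshold (edgeR FDR = 0.110), and it was 0.29 (edgeR FDR = 0.481) without A and 0.38 (edgeR FDR = 0.122) without A and young 3. CBS passed without young liver 3 and without old liver B or C (edgeR FDR = 0.0823, 0.0643 and 0.0792).

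**Figure D2:**
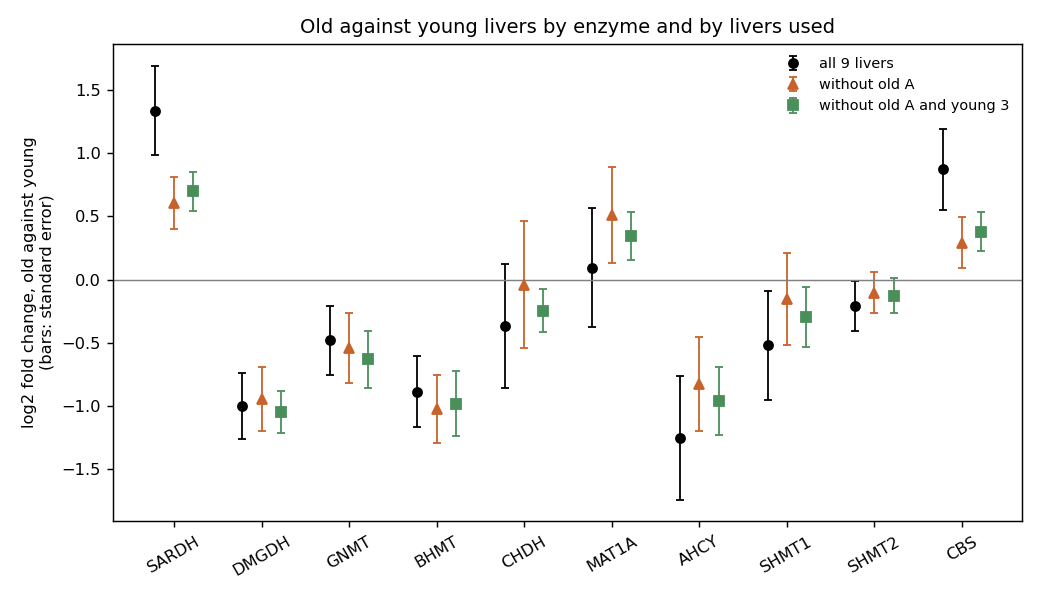
Log2 fold change of old against young livers for the 10 enzymes, with standard errors, in all 9 livers, without old A, and without old A and young 3. DMGDH and BHMT stay between -0.89 and -1.05 in all 3, whereas SARDH goes from 1.34 to 0.61 and 0.70, and CBS from 0.88 to 0.29 and 0.38.

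The median log2 fold change of the 9 members other than SARDH was -0.48, with 7 negative and 2 positive, against 0.02 over all genes tested. Without A it was -0.15, and edgeR called 0 of the 9, where it called 3.48% of all genes (2.13% higher and 1.35% lower). Without young 3 it was -0.57, with CBS called higher and DMGDH, BHMT and AHCY lower, where 24% of all genes were called (17% higher and 7.06% lower). Without A and young 3 it was -0.30, with DMGDH, GNMT, BHMT and AHCY lower, 4 of 9, where 25.9% of all genes were called (14.2% higher and 11.7% lower). In all 9 livers, DESeq2 called CBS higher and 3 members lower (DMGDH, BHMT and AHCY), against 13.5% and 7.93% of all genes (21.5% in either direction). The voom method with quality weights, which gives livers that stand apart less weight, called CBS higher and 4 members lower (DMGDH, BHMT, AHCY and GNMT), against 20.5% and 16.7% of all genes (37.2% in either direction). DMGDH and BHMT were lower, and GNMT, MAT1A, CHDH, SHMT1 and SHMT2 had 95% confidence intervals that include 0. Those of AHCY and CBS do not include 0, but neither passed after adjustment over all genes.

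In most members the levels in A and in young 3 departed from their groups in the same direction. In SARDH, A exceeded the mean of B and C by 1.59 on the log2 scale and young 3 exceeded the mean of the other 5 young livers by 0.50, and in CBS these values were 1.32 and 0.47. In the opposite direction, A and young 3 differed from the rest of their groups by -2.01 and -1.55 in MAT1A, by -2.09 and -1.04 in AHCY, by -1.62 and -1.19 in SHMT1 and by -1.34 and -2.31 in CHDH. In 9 of the 10 members the sign was shared, compared with 66.4% of all 12277 genes tested, and GNMT was the exception (0.18 and -0.60). The 9 include SARDH, which was picked for its level in old livers, and whether the members differ from other genes was not tested. DMGDH and BHMT, the down-regulated members, were among the least moved in A, with -0.16 and 0.40.

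**Figure D3:**
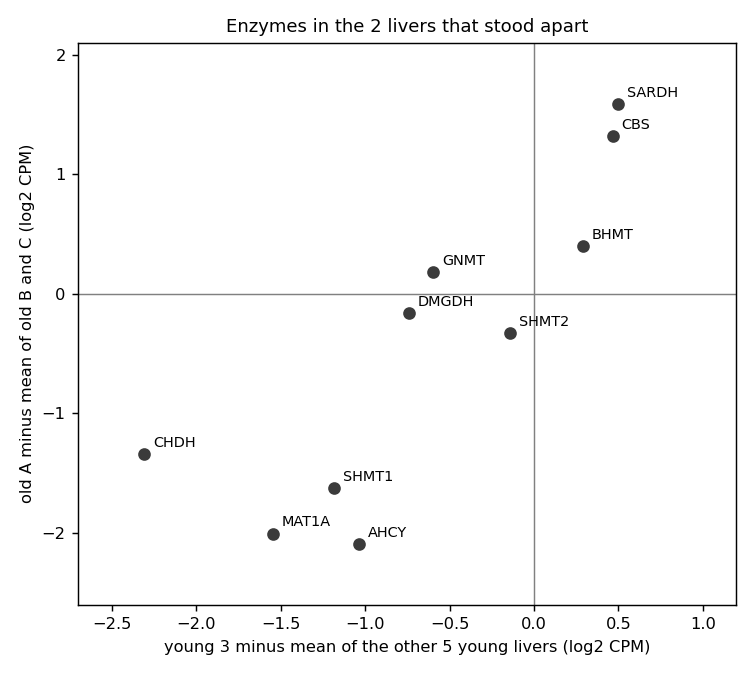
Each point is an enzyme, with the log2 CPM of young 3 minus the mean of the other 5 young livers on the horizontal axis and that of old A minus the mean of B and C on the vertical axis. SARDH (0.50 and 1.59) and CBS (0.47 and 1.32) lie at the upper right, and MAT1A, AHCY, SHMT1 and CHDH at the lower left.

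Ratios of enzymes counted in the same liver do not depend on the scaling of libraries, and only their change between livers is read here. The log2 ratio of DMGDH to SARDH, neighbours in the pathway, was 0.44 to 1.98 in young livers, and -1.81 (A), 0.16 (B) and -0.27 (C) in old ones. That of GNMT, which makes sarcosine, to SARDH, which removes it, was -1.29 to 0.33 in young livers, and -2.90 (A), -1.41 (B) and -1.58 (C) in old ones. In both ratios the old livers lay below all young ones, and young 3 was the lowest of its group. Both contain SARDH and are therefore a description.

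AHCY and MAT1A catalyse the steps after and before the methyl transfer. In their ratio A lay between B and C, and its log2 value was -2.36 to -1.48 in young livers, and -3.42 (A), -3.46 (B) and -3.19 (C) in old ones. The mean was lower in old livers by a difference of -1.37, and of -1.26 without A and young 3. For CBS to BHMT, the enzymes that compete for homocysteine, the log2 ratio was -3.46 to -2.76 in young livers, and -0.86 (A), -1.71 (B) and -1.86 (C) in old ones. Here all old livers lay above all young ones, and the difference of the means was 1.62, or 1.34 without A and young 3. Such a lack of overlap was found in 16.4% of all pairs of genes tested, so these ratios are given as values and not as a test.

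The remaining ratios overlapped between the ages. DMGDH to BHMT, which both fell, had a log2 ratio of -3.21 to -1.90 in young livers and of -2.83 (A), -2.09 (B) and -2.45 (C) in old ones, with a difference of the means of -0.10. SHMT1 to SHMT2 was 1.80 to 3.36 in young livers, and 1.41 (A), 2.73 (B) and 2.68 (C) in old ones. BHMT to CHDH was 4.95 to 8.30 in young livers, and 6.72 (A), 4.65 (B) and 5.32 (C) in old ones, with its highest values in young 3 and A.

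**Figure D4:**
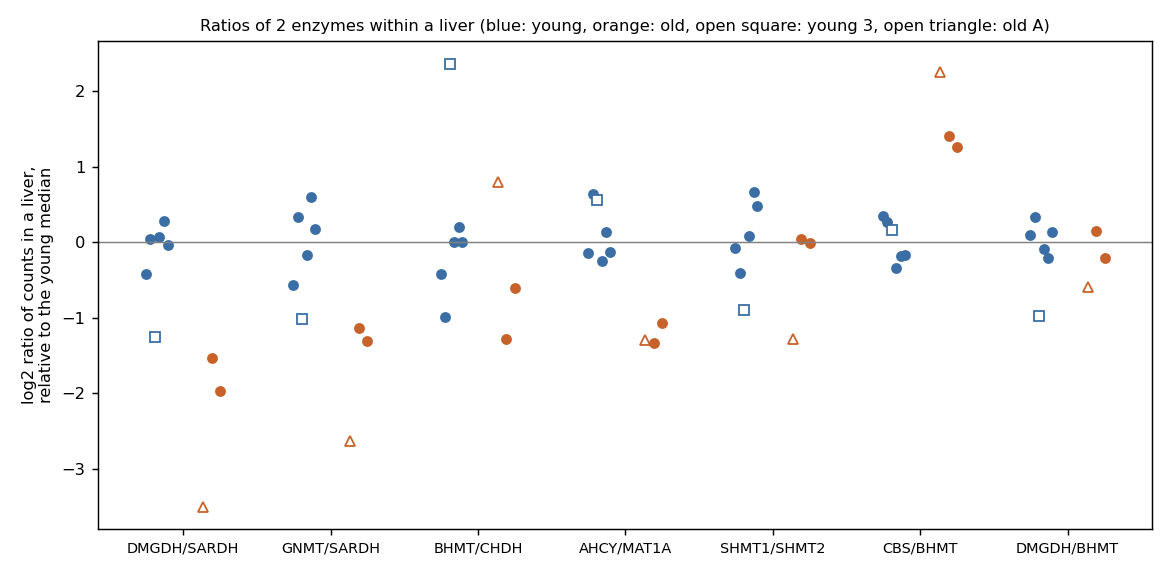
Log2 ratio of the counts of 2 enzymes in each liver, shown relative to the median of the 6 young livers. Old livers lie below all young ones for DMGDH/SARDH, GNMT/SARDH and AHCY/MAT1A, above them for CBS/BHMT, and among them for the other ratios.

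Likeness of other genes to the profile of SARDH over the 9 livers is given as a description. That profile holds the levels by which SARDH was picked. Likeness was measured as the root mean square difference of log2 CPM after centring each gene on its mean. It was ranked among 11390 other genes with a mean log2 CPM of at least 0, and symbols starting with LOC were left out. As only 9 of these are members, the nearest genes were likely to lie outside the pathway. The 5 genes most like SARDH were PTDSS2, a phosphatidylserine synthase (0.11), MTA1, a chromatin remodelling subunit (0.13), AP1M1, a subunit of a clathrin adaptor (0.13), the zinc finger gene ZSCAN29 (0.13) and the histone methyltransferase EHMT2 (0.14). PTDSS2, for example, had 104 CPM in A, 27.8 in B, 34.0 in C and 15.1 to 27.2 in the young livers, with young 3 the highest of these. CBS stood at rank 346 (0.26), SHMT2, the next member, at rank 6003 and DMGDH at rank 8888.

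The other genes of the pathway were described in 7 lists of 83 genes, 79 of which were in the table and 78 of which were tested. With age, 2 of the 78 rose, 10 fell and 66 did not pass, or 2.56% higher and 12.8% lower against 11.7% and 3.65% of all genes tested. Their median log2 fold change was -0.18 against 0.02 over all genes. Whether the lists differ from other genes was not tested. Without A, 0 were higher and 5 lower (2.13% and 1.35% of all genes tested), and without A and young 3, 5 were higher and 19 lower (14.2% and 11.7% of all genes tested).

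BHMT2, a close relative of BHMT that uses S-methylmethionine as its donor, fell together with it. It had 409 to 674 CPM in young livers (median 513), and 337 (A), 295 (B) and 302 (C) in old ones (log2 fold change -0.72 ± 0.24 SE, edgeR FDR = 0.0859). Reads that fit BHMT and BHMT2 equally well were not counted for either. BHMT2 was the only 1 of 13 genes of the methionine cycle and salvage to pass (7.69%, against 15.4% of all genes tested), and the list's median was -0.03. MTR and MTRR, which remethylate homocysteine with folate in place of betaine, had log2 fold changes of 0.08 and -0.03 that did not pass (edgeR FDR = 0.826 and 0.958), and MAT2A, the methionine adenosyltransferase of most tissues other than adult liver, had one of 0.30 that did not pass (edgeR FDR = 0.690).

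In the route from homocysteine to cysteine and sulfate, the log2 fold changes of all 8 genes were below 0 (median -0.48) with every liver included. Past the threshold, 2 of these genes fell, or 25% of the list, against 15.4% of all genes tested called in either direction. Without A, MPST and SQOR of this list were above 0 (0.10 and 0.10), and the list's median was -0.26. CDO1, the dioxygenase that starts the breakdown of cysteine, had 432 to 728 CPM in young livers (median 662), and 352 (A), 339 (B) and 341 (C) in old ones. The old livers were nearly equal, and A did not stand apart (log2 fold change -0.88 ± 0.24 SE, edgeR FDR = 0.0587). SUOX, the sulfite oxidase, had 275 to 374 CPM in young livers (median 300.5), and 131 (A), 210 (B) and 183 (C) in old ones (log2 fold change -0.82, edgeR FDR = 0.0652). CTH, which follows CBS and releases cysteine, had a log2 fold change of -0.50 that did not pass (edgeR FDR = 0.302). CBS itself, at the entry of this route, had a difference above 0.

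Among 19 genes of the folate cycle tested, 1 rose, 2 fell and 16 did not pass, and the median log2 fold change was -0.01. The called share was 15.8%, against 15.4% of all genes tested. GGH, which trims the glutamate tail of folates, had the largest change of the 12 genes called in the lists. It stood at 28.1 to 45.7 CPM in young livers (median 36.2), and at 3.30 (A), 10.2 (B) and 10.3 (C) in old ones (log2 fold change -2.16 ± 0.37 SE, edgeR FDR = 0.0321). MTHFS, which returns folinic acid to the folate pool, fell (log2 fold change -0.83, edgeR FDR = 0.0756). ALDH1L2, the mitochondrial enzyme that burns the formyl group of folate to carbon dioxide, rose from 59.0 to 92.1 CPM in young livers (median 71.4) to 125 (A), 98.0 (B) and 121 (C) in old ones (log2 fold change 0.67 ± 0.21 SE, edgeR FDR = 0.0786). Its cytosolic counterpart ALDH1L1 had a log2 fold change of -0.66 that did not pass (edgeR FDR = 0.106), and it is named here after its value was seen.

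Of 16 genes of serine and glycine metabolism, 2 fell and 14 did not pass, with a median of -0.34. Called genes made up 12.5% of this list, against 15.4% of all genes tested. PHGDH, which starts the synthesis of serine, had 216 to 385 CPM in young livers (median 339), and 34.5 (A), 153 (B) and 175 (C) in old ones (log2 fold change -1.39 ± 0.46 SE, edgeR FDR = 0.0859). GCSH, the lipoyl carrier of the glycine cleavage system, had a log2 fold change of -0.89 (edgeR FDR = 0.0939) and overlapped between the ages by a narrow margin. PIPOX, a peroxisomal enzyme that also oxidizes sarcosine, had a log2 fold change of -0.57 that did not pass (edgeR FDR = 0.210). GLDC, the decarboxylase of glycine cleavage, had 1086 CPM in A but 333 in B and 320 in C, both inside the young range of 256 to 497, and did not pass (edgeR FDR = 0.239).

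The lists for choline, methyl transfer and electron transfer had 1 member each that fell, and CHKB rose. Called genes made up 20%, 14.3% and 20% of these lists, against 15.4% of all genes tested. ALDH7A1, which oxidizes betaine aldehyde, the product of CHDH, to betaine, had 222 to 300 CPM in young livers (median 259), and 87.2 (A), 169 (B) and 160 (C) in old ones (log2 fold change -0.91 ± 0.26 SE, edgeR FDR = 0.0655). CHKB, a choline kinase, had 244 CPM in A against 47.6 in B and 60.9 in C, and B and C lay inside the young range of 25.05 to 66.6, below young 3 (log2 fold change 1.72, edgeR FDR = 0.0656, and 0.60 with FDR = 0.415 without A). INMT, a methyltransferase of indole amines, had 462 to 640 CPM in young livers and 43.0 (A), 244 (B) and 308 (C) in old ones (log2 fold change -1.49, edgeR FDR = 0.0888). ETFA, a subunit of the flavoprotein that takes up the electrons of SARDH and DMGDH, had 364 to 584 CPM in young livers (median 465), and 78.7 (A), 252 (B) and 278 (C) in old ones (log2 fold change -1.24 ± 0.38 SE, edgeR FDR = 0.0741). All 5 genes of electron transfer and flavin supply were negative with every liver included, with a median of -0.48. Without A, RFK of this list was above 0 (0.33), and the list's median was -0.32. Without A and young 3, these values were 0.11 and -0.28. The medians of the choline and the methyltransferase lists were 0.19 and 0.04 with every liver included.

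GGH kept its call without any one liver. The other 11 genes called in these lists each lost theirs without at least 1 liver. Without A, 7 of the 12 no longer passed, among them BHMT2 (edgeR FDR = 0.115), SUOX (edgeR FDR = 0.109) and PHGDH (edgeR FDR = 0.104), whereas CDO1, ALDH7A1, INMT and ETFA passed (edgeR FDR = 0.0940, 0.0971, 0.0567 and 0.0878). Without young liver 1, 2, 4, 5 or 6, 9 to 11 of the 12 no longer passed, without old liver B or C 3 and 2, and without young 3 all 12 passed. Over all genes, 1437 were called higher and 448 lower in all 9 livers, and 264 and 167 without A. These counts were 125 to 785 and 62 to 206 without young liver 1, 2, 4, 5 or 6. They were 2055 and 450 without B, 1972 and 538 without C, and 2071 and 862 without young 3.

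**Figure D5:**
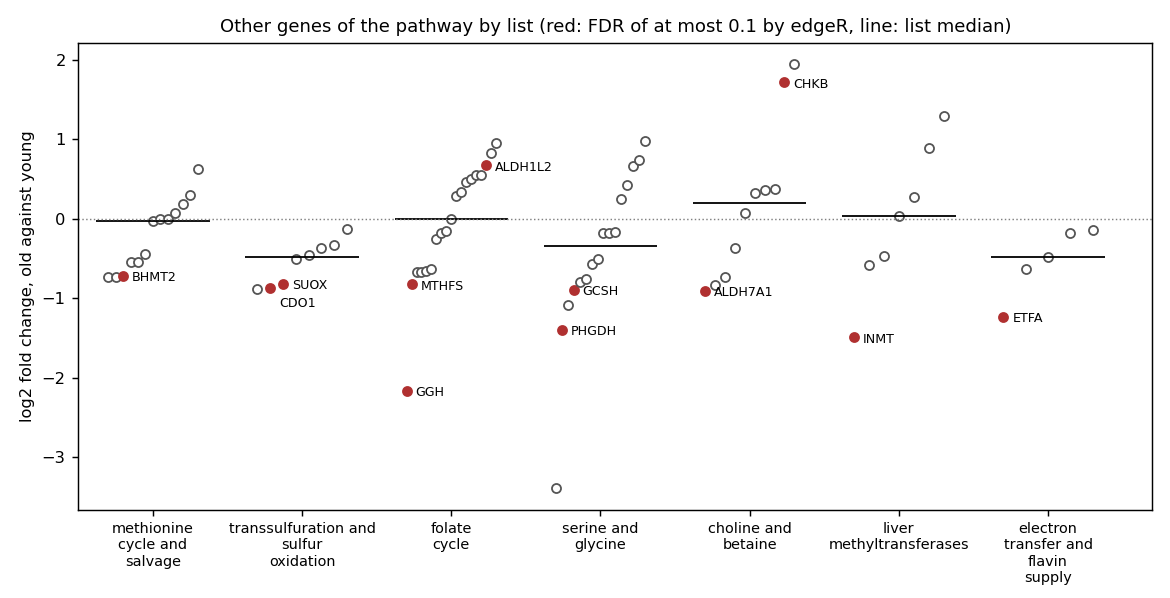
Log2 fold change of old against young livers for each tested gene of the 7 lists, with called genes in red and a line at each list's median. GGH (-2.16) is the lowest called gene, and CHKB (1.72) and ALDH1L2 (0.67) are the only called genes above 0. The lists of transsulfuration and of electron transfer lie entirely below 0 with every liver included. Without old A, MPST and SQOR of the former and RFK of the latter are above 0.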

How the data were processed

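Each of 9 animals gave 1 liver library, sequenced as single reads. For the deposited counts, the authors mapped the reads with STAR (version 2.4.1d), discarded reads mapping to several places, and counted the rest per gene of their own annotation with HTSeq. For HTSeq, neither the version nor the strand setting is given in the sources used here, and the library kit does not mark strand, so overlapping genes on opposite strands cannot be told apart. The values are raw. All libraries differed by more than sampling noise (B and C least, with a chi-square of 28.96 per degree of freedom). In 93 rows, where symbols sort differently with letter case, the old and young columns do not name the same gene (Spearman correlation across them -0.18 as deposited and 0.978 with the old values in the other order), and in 25 rows symbols had turned into dates. These rows (0.319% and 0.133% of counts) were left out, which left 16221. None of them is a gene of the lists (0 genes).

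Age groups were tested with edgeR 4.0.16 under R 4.3.3 (TMM scaling, filterByExpr by age group, robust glmQLFit, glmQLFTest) without covariates and with Benjamini-Hochberg adjustment over all genes tested. Standard errors were taken from the log2 fold change and the F value of each gene. Log2 CPM used a prior count of 2. Fits were tested on simulated data with known answers. Alternatives were DESeq2 1.42.0, voom with quality weights (limma 3.58.1), other scalings and filters, all rows as deposited, FDR 0.05, and leaving out each liver, or A and young 3 together.

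The members, lists and tests were chosen with earlier results of these data known. By rule, the text names every member, the called genes of each list up to 4, the 5 genes most like SARDH, and a few further list genes named after their values were seen. Each library is labelled as another animal, so p-values measure the spread between animals.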

Additional observations from a re-analysis of the deposited data

Results flagged for a closer look

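Young liver 3 stood apart from the other 5 young livers, by a gap larger than Dixon's 95% critical value, in CHKB (66.6 CPM against 25.05 to 36.8 in the others), MTHFS (129.9 CPM against 67.2 to 90.3), SUOX (374 CPM against 275 to 305) and in the log2 ratio of BHMT to CHDH (8.30 against 4.95 to 6.13). Young liver 1 stood apart in GCSH (83.0 CPM against 116 to 135). Of 29 genes and ratios tested in this way 5 were flagged, where chance flags about 1 in 20 if the items are independent. They come from the same livers, and young 3 stood apart across all genes, so this rate is no baseline for them. The 3 old livers are too few for this comparison.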

How the results depend on the processing

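No paired analysis was possible because the labels give no number that young and old animals share. Over all genes, 1437 were higher and 448 lower. These counts were 2511 and 2052 with voom, 330 and 90 at FDR 0.05, and 125 to 2071 and 62 to 862 without 1 liver, while the number lower was 1058 with the DESeq2 test and 1451 without A and young 3. Among the members other than SARDH, 0 were higher and 2 lower. The number higher was 1 (CBS) with DESeq2, voom and at least 10 counts in every liver and 0 to 1 without 1 liver, and the number lower was 4 with voom and without A and young 3, 0 at FDR 0.05 and 0 to 3 without 1 liver. In the pathway lists, 2 were higher and 10 lower. The number higher was 1 with upper quartile scaling and with no filter, 9 with voom, 5 without A and young 3, 0 at FDR 0.05 and 0 to 7 without 1 liver. The number lower was 22 with voom, 19 without A and young 3, 1 at FDR 0.05 and 1 to 15 without 1 liver. The log2 fold change of SARDH was 1.34, and it was 0.73 with voom, 0.70 without A and young 3 and 0.61 to 1.64 without 1 liver. The cause of these shifts was not tested. Of 525 values of single genes and list medians under alternatives, 96 lost a call, 12 gained one and 0 called values changed sign. The other 417 were genes that kept their side of the threshold, or list medians that moved by less than the spread between livers. Genes not called could change sign among these 417, as MAT1A did in 3 fits. In DMGDH the FDR ran from 5.1e-04 to 0.118, and in BHMT from 0.00385 to 0.155. Each member had at least 259 counts in every liver, so counting error is small beside the spread between livers, and with 3 old livers that spread limits these comparisons.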
